A study of Mus musculus with 16 samples.

Results

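The 5034 regions described here carried acetylation of histone H3 at lysine 9 (H3K9Ac) in differentiated MC3T3-E1 cells, overlapped no H3K9Ac region of undifferentiated cells by 1 bp or more, and overlapped no RUNX2 or C/EBPβ peak of either state. Of the 23671 regions of that list, 9116 (38.5%) had no undifferentiated H3K9Ac and 11782 (49.8%) no factor peak, and the regions that meet both conditions were 21.3% of the 23671 H3K9Ac regions of differentiated cells and covered 10.1 Mb of the mouse genome (build mm9). They are called gained factor-free regions. The other regions of the differentiated list included 4082 gained regions with a RUNX2 or C/EBPβ peak (gained factor-bound). The remainder overlapped undifferentiated H3K9Ac, 6748 with no such peak (kept factor-free) and 7807 with one (kept factor-bound). The regions were chosen by their H3K9Ac, RUNX2 and C/EBPβ calls, so values from those lists are given as a description only.

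MC3T3-E1 is a mouse pre-osteoblast line derived from newborn calvaria, used as a model of bone formation in culture. Chromatin immunoprecipitation followed by sequencing (ChIP-seq) was done with antibodies to RUNX2, C/EBPβ, H4K5Ac, H3K9Ac, H3K4me1, H3K4me3 and H3K36me3 in 2 states. The differentiated cells had been held for 15 days in medium with glycerol-2-phosphate at 10 mM and ascorbic acid at 50 µg/mL, with the mineralised matrix removed before chromatin was made, and they were set against undifferentiated cells of the same line. Cells of both states were at passages 5 to 12 and received ethanol, the vehicle, for 3 h, so no group here carries a ligand. Each antibody and state is 1 deposited list of merged replicate peaks, 14 lists in all, so no difference between states has a replicate check and how deeply each library was sequenced is unknown. With 23671 differentiated and 14975 undifferentiated H3K9Ac regions, a gain of acetylation and a deeper or more efficient differentiated immunoprecipitation cannot be told apart.

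Histone acetylation loosens the contact of nucleosomes with DNA and is read by bromodomain proteins, and H3K9Ac and H4K5Ac mark active promoters and enhancers. H3K4me1 marks enhancers, also those that are primed but not yet active, H3K4me3 marks active promoters, and H3K36me3 is laid down along transcribed gene bodies. RUNX2, the runt-domain factor without which osteoblasts do not form, and C/EBPβ, a basic leucine zipper factor, bind many enhancers of this lineage. The regions described here are the sites with an H3K9Ac call in differentiated cells only, where neither factor was called.

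Sequences of 7 gained factor-free regions are shown as examples of the kinds of site described below. Each is the central 0.2 kb, read on the plus strand of mm9 (NCBIM37 assembly). Capitals mark matches on either strand to the AP-1 letters TGANTCA (any base at N), the E-box CAGCTG or the GC box GGGCGG, and a sequence all in lower case holds none of these. In windows of this length, 7.09% of all differentiated H3K9Ac regions held the AP-1 letters, 11.6% the E-box and 16.4% the GC box. The first sequence lies in the highest-scoring promoter region with H3K4me3 in differentiated cells only, at Col11a1 (chr3:113734212-113734412). The second is from the highest-scoring region of all, in an intron of Nkiras2 (chr11:100482544-100482744).
Col11a1: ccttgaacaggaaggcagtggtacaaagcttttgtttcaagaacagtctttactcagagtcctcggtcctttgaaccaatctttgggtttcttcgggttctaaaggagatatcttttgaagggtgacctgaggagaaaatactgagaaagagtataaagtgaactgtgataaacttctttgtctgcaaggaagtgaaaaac
Nkiras2: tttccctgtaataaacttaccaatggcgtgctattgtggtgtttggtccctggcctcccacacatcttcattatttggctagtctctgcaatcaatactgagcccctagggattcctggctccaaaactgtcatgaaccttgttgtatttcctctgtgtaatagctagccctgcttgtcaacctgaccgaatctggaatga
The next pair lies away from promoters and departs from the common pattern of marks. The Hist1h2ah region (chr13:22119668-22119868, intergenic) lay in no H4K5Ac region of either state, and the Gpbp1 region (chr13:112198699-112198899, intergenic) lay in H3K4me1 after differentiation and not before.
Hist1h2ah: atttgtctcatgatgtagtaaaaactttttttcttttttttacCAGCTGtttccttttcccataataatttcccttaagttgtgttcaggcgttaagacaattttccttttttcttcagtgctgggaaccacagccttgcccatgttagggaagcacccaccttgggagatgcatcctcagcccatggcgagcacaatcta
Gpbp1: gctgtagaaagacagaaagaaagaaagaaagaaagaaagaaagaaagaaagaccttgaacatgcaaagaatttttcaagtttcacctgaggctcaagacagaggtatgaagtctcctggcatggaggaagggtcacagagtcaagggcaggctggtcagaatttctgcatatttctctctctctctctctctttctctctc
The Fgfr2 region (chr7:137253143-137253343, intergenic) is the highest-scoring one of a gene with most regions.
Fgfr2: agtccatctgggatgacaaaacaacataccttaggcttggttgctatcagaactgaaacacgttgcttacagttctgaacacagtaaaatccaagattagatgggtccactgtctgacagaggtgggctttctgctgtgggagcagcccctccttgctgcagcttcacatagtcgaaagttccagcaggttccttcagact
The last 2 are among the highest-scoring non-promoter regions with a match to the AP-1 letters in this window, chosen after their values were seen. Both matches read TGAATCA, and neither is TGACTCA or TGAGTCA. One is intergenic on chromosome 8 (chr8:106014970-106015170) with no gene start in 100 kb, and the other lies in an intron of Bckdhb (chr9:84004382-84004582).
Chromosome 8 region: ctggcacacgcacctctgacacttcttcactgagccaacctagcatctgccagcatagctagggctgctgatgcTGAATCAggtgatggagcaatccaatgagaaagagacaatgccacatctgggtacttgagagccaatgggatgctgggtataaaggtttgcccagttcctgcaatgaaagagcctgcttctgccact
Bckdhb: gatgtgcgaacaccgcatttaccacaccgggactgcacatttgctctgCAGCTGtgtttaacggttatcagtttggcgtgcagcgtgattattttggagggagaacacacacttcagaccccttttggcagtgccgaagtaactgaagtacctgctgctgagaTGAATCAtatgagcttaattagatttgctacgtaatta

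Gained factor-free regions were the weakest and narrowest of the 4 classes. Their median deposited score, the authors' own value for each region, was 64.3, against 109 in gained factor-bound, 571 in kept factor-free and 799 in kept factor-bound regions. The middle 80% of them scored between 24.2 and 171, and 91 of 5034 (1.81%) reached the list's median of 294. The lowest score was 17.0, in this class and in the whole list. Their median width was 1688 bp, against 2352 bp, 3053 bp and 4142 bp in the other classes in the same order. Of the 5034, 5002 were merged from 2 peaks and 32 from 3. These are values of the list that chose the regions, so no test applies to them.

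**Figure D1:**
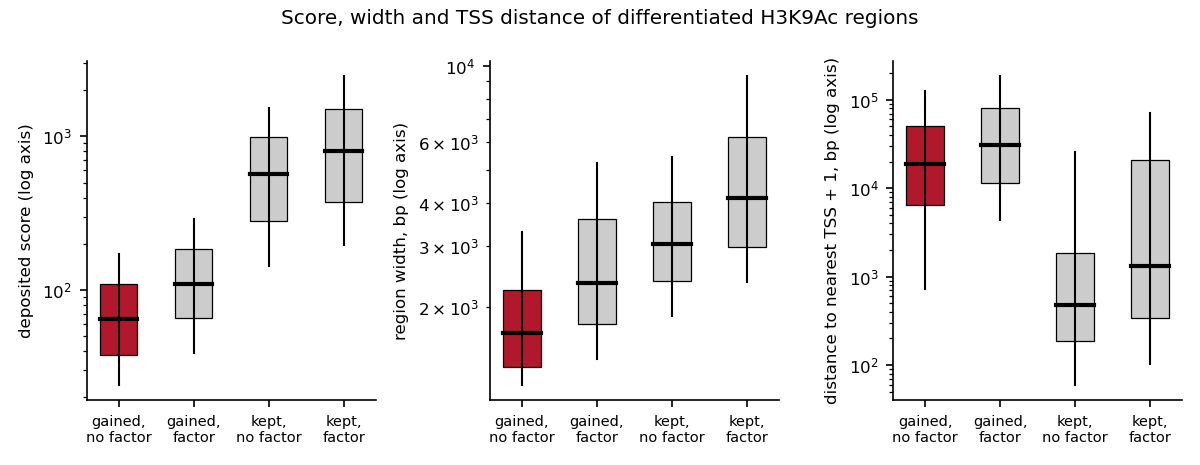
Deposited score, region width and distance from the region's midpoint to the nearest transcription start site (TSS) in the 4 classes of differentiated H3K9Ac regions, all on log axes, with gained factor-free regions in red. Thick lines are medians, boxes span the middle 50% and thin lines the middle 80% of regions; the red boxes are the lowest in score and width, and their median TSS distance of 19031 bp lies between those of the kept and the gained factor-bound classes.

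Few regions lay close, in base pairs, to the edges of the rule, which describes the lists that chose them. How near a signal lay to the threshold of a call cannot be seen from these distances. The undifferentiated H3K9Ac region nearest to any gained factor-free region was 863 bp away, and the median distance was 23880 bp. Among kept factor-free regions the smallest overlap with undifferentiated H3K9Ac was 158 bp. The nearest RUNX2 or C/EBPβ peak was 14938 bp away at the median and 10 bp away at the closest, with 10 regions within 100 bp of a peak and 93 within 1 kb. On the other side of that limit, 32 gained regions held a factor peak only in part, across their edge.

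Most gained factor-free regions were in H4K5Ac and H3K4me1 chromatin in both states, and so already before differentiation. In differentiated cells 92.6% of their midpoints lay in H4K5Ac (91.8 to 93.3; whole list 97.2%) and 98.0% in H3K4me1 (97.6 to 98.4; whole list 97.7%). In undifferentiated cells the midpoint of 4730 of them (93.96%, exact 95% interval 93.3 to 94.6) lay in an H4K5Ac region, where the whole differentiated H3K9Ac list gave 97.7% and H4K5Ac covered 12.8% of the genome. For undifferentiated H3K4me1, 4682 (93.0%, 92.3 to 93.7) were inside, against 94.8% of the whole list. Both marks in both states were found at 4349 regions (86.4%; whole list 91.8%), below the 97.8% of gained factor-bound, 89.1% of kept factor-free and 94.5% of kept factor-bound regions, and 35 (0.695%; whole list 0.313%) lay in neither mark in either state. The midpoint was used so that the width of a region does not enter, and all intervals cover counting error only, since regions are not replicates.

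Calls of H4K5Ac or H3K4me1 in 1 state only were a small share of gained factor-free regions. The share was larger than over the whole list for H4K5Ac in either state alone and for H3K4me1 in differentiated cells only. H4K5Ac was called at 131 regions (2.60%; whole list 1.12%) in differentiated cells only and at 202 (4.01%; whole list 1.65%) in undifferentiated cells only, and 173 (3.44%; whole list 1.2%) were outside it in both states. H3K4me1 was called at 266 regions (5.28%; whole list 3.32%) in differentiated cells only and at 13 (0.258%; whole list 0.401%) in undifferentiated cells only, and 86 (1.71%; whole list 1.93%) were outside it in both states. The H4K5Ac list itself was shorter in differentiated cells, with 33439 regions against 41592 in undifferentiated cells, and the H3K4me1 list was longer, with 54403 against 51122. The part of these list lengths in the counts was not tested.

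Compared with gained factor-bound regions, gained factor-free regions were less often in either mark. In the differentiated lists the differences were -6.44 points for H4K5Ac (-7.25 to -5.67) and -1.87 points for H3K4me1 (-2.29 to -1.49). In undifferentiated H4K5Ac the shares were 93.96% of gained factor-free and 99.2% of gained factor-bound regions, a difference of -5.26 percentage points (Newcombe 95% interval -5.98 to -4.55). In undifferentiated H3K4me1 they were 93.0% and 98.9%, a difference of -5.91 points (-6.70 to -5.15). Away from promoters the undifferentiated differences were -2.74 points for H4K5Ac (-3.33 to -2.18) and -4.17 points for H3K4me1 (-4.90 to -3.47).

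The marks also varied with the H3K9Ac score. Undifferentiated H4K5Ac held 90.4% of the lowest-scoring tercile of gained factor-free regions, 94.6% of the middle tercile and 96.8% of the highest, each of 1678 regions. Gained factor-bound regions in the same score ranges were at 98.3% (n = 580), 98.9% (n = 1045) and 99.6% (n = 2458). For undifferentiated H3K4me1 the gained factor-free terciles were at 89.5%, 93.3% and 96.2%, and gained factor-bound regions in those ranges at 98.3%, 99.2% and 98.9%. Gained factor-free regions were lower in each of these ranges.

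H3K4me3, the promoter mark, was almost absent from gained factor-free regions, as from gained factor-bound ones. Only 10 midpoints (0.199%, 0.0953 to 0.365) lay in differentiated H3K4me3, where the whole list gave 30.6%, and 17 (0.338%, 0.197 to 0.540) lay in undifferentiated H3K4me3 (whole list 27.7%). None was inside in both states. Gained factor-bound regions were at 0.0735% in differentiated and 0.931% in undifferentiated H3K4me3. Kept factor-free regions, the class with most promoters, were at 55.5% in differentiated and 46.5% in undifferentiated H3K4me3. Among non-promoter regions of 2000 bp or narrower, kept factor-free ones were at 1.84% and 1.02%, and gained factor-free ones at 0.0677% and 0.338%, in the same order. H3K36me3 held 21.0% of gained factor-free regions in differentiated cells (19.9 to 22.2; whole list 22.8%) and 21.5% in undifferentiated cells (20.4 to 22.7; whole list 23.8%).

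**Figure D2:**
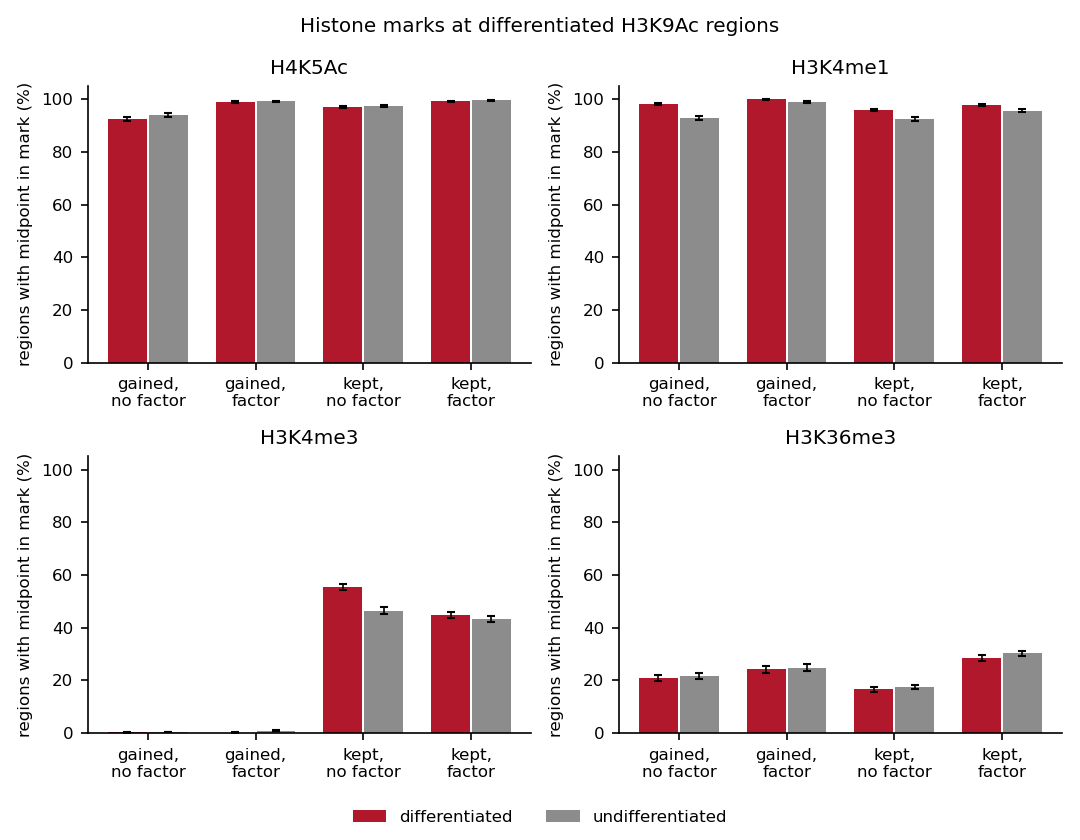
Share of H3K9Ac regions whose midpoint lay in a region of each of 4 other marks, in differentiated (red) and undifferentiated (grey) cells, for the 4 classes; error bars are exact 95% intervals of counting error. H4K5Ac and H3K4me1 hold over 92% of gained factor-free regions in both states, while H3K4me3 holds under 1% of both gained classes.

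Some gained factor-free regions shared an H4K5Ac region with other elements. Of the 4730 in undifferentiated H4K5Ac, 1087 (23.0%) lay in an H4K5Ac region that also held an undifferentiated H3K9Ac region elsewhere along it, against 30.4% of the gained factor-bound regions. A RUNX2 or C/EBPβ peak lay elsewhere in the same H4K5Ac region for 1575 (33.3%), against 17.1% of kept factor-free regions. Over the whole list, whose kept and factor-bound regions supply such elements themselves, the shares were 72.0% and 62.7%. The H4K5Ac region around a gained factor-free region was 7374.5 bp wide at the median. It was 16369 bp wide for gained factor-bound and 5240 bp for kept factor-free regions, and the part of width in these shares was not tested. The H4K5Ac regions that held gained factor-free regions numbered 4409, of which 4144 held 1, 227 held 2 and 38 held 3 or more, with 6 at most.

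Gained factor-free regions were mainly intergenic and intronic. Midpoints fell between genes for 2346 (46.6%; whole list 31.7%), in introns for 1972 (39.2%; whole list 28.4%), in exons for 145 (2.88%; whole list 2.28%) and within 1 kb of a TSS for 571 (11.3%, 10.5 to 12.3; whole list 37.6%). Promoters were more frequent than among gained factor-bound regions, of which 156 (3.82%) lay there, a difference of 7.52 points (6.46 to 8.58). When the limit was widened to 5 kb from a TSS the share was 20.8%, against 11.4% of gained factor-bound regions. With the starts of protein-coding transcripts alone it was 9.85%, against 2.87%.

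Of the 571 promoter regions, 187 (32.7%) were CpG-rich, with an observed to expected CpG ratio of at least 0.6 and at least 50% GC over the central 0.5 kb, against 10.3% of gained factor-bound and 59.3% of kept factor-free promoter regions. H4K5Ac held 74.6% of them in differentiated and 72.2% in undifferentiated cells, against 93.6% and 92.3% of gained factor-bound promoter regions. H3K4me1 held 91.4% in differentiated and 78.1% in undifferentiated cells, against 95.6% and 91.1% of all promoter regions of the H3K9Ac list. In differentiated H3K4me3 there were 7 of 571 (1.23%; all promoter regions 69.4%), and in undifferentiated H3K4me3 0 of 571, with an exact upper 95% bound of 0.644% (all promoter regions 59.6%). Gained factor-bound promoter regions were at 0.641% and 1.28% in the same order.

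Those 7 promoter regions had their midpoint in H3K4me3, as they had their H3K9Ac call, in the differentiated list only. In order of score they belonged to Col11a1, which encodes a chain of the fibrillar type XI collagen, Ankrd33b, Fbxo6, an F-box protein that recognises glycoproteins, Pag1, a lipid-raft adaptor that binds the kinase Csk, Mfsd9, a transporter-family protein, Chrdl1, a secreted BMP antagonist, and Eif5a2, a translation factor. The Col11a1 region (chr3:113732229-113736396) scored 796, was 4168 bp wide and had its midpoint 854 bp downstream of the TSS, with the nearest factor peak 20208 bp and the nearest undifferentiated H3K9Ac region 397688 bp away. The other 6 scored between 147 and 366. The other 3 regions with a midpoint in H3K4me3 in differentiated cells only were at Nkiras2, Zfp72 and Coil, the last 2 named after their values were seen. The Nkiras2 midpoint lay 1046 bp from a TSS, just past the limit of 1 kb, and H3K4me3 was called at a Nkiras2 start in both states.

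Among the 10 highest-scoring regions, 3 were at promoters. The top one was in an intron of Nkiras2, a Ras-like inhibitor of NF-κB signalling (chr11:100479008-100486280). It scored 2181.8, was 7273 bp wide, lay in H4K5Ac and H3K4me1 in both states and had its midpoint in H3K4me3 in differentiated cells only. It had no factor peak within 100 kb, the nearest being 113203 bp away. Olfml1, which encodes a secreted olfactomedin-like protein, scored 775 and Mrgprf, an orphan G-protein-coupled receptor, 616, both at the promoter. The others were near Ppp2ca, the catalytic subunit of phosphatase PP2A (612), Slc29a1, a nucleoside transporter (571), Ramp1, a partner of the calcitonin receptor-like receptor (554), Cyth1, an exchange factor for ARF GTPases (545), Galk1, galactokinase (533), and Iqsec1, another ARF exchange factor (523). The Ppp2ca region lay in an intron of Cdkl3 and the Galk1 region in an intron of Itgb4. The Ramp1 region lay 429 bp from a factor peak, and for the remaining 9 the nearest was 6720 bp or more away.

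The widest regions were at Sipa1l1, a regulator of Rap GTPases (13431 bp), Dlx3, a homeobox factor of bone and tooth (10975 bp), Iqsec1 (9850 bp) and Spryd3 (9391 bp), with an intergenic region of 8956 bp on chromosome 11 that had no gene start in 100 kb. All 5 lay in H4K5Ac and H3K4me1 in both states.

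H3K36me3 along the gene body showed whether these genes carried the transcription mark in each state. It covered 63.3% of Col11a1 in differentiated cells and 0% in undifferentiated cells, and 82.8% of Olfml1 in differentiated cells and 0% in undifferentiated cells. Ramp1 was covered over 89.5% in differentiated and 26.2% in undifferentiated cells, Mfsd9 over 84.8% and 35.7%, and Dlx3 over 26.0% and 0% in the same order. Chrdl1 was lower in differentiated cells, with 61.0% in differentiated and 85.1% in undifferentiated cells. Mrgprf, Ankrd33b and Pag1 had none in either state, and Ppp2ca had 97.2% in differentiated and 97.3% in undifferentiated cells. The H3K36me3 cover of these genes was thus higher, near equal or lower in differentiated cells.

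**Figure D3:**
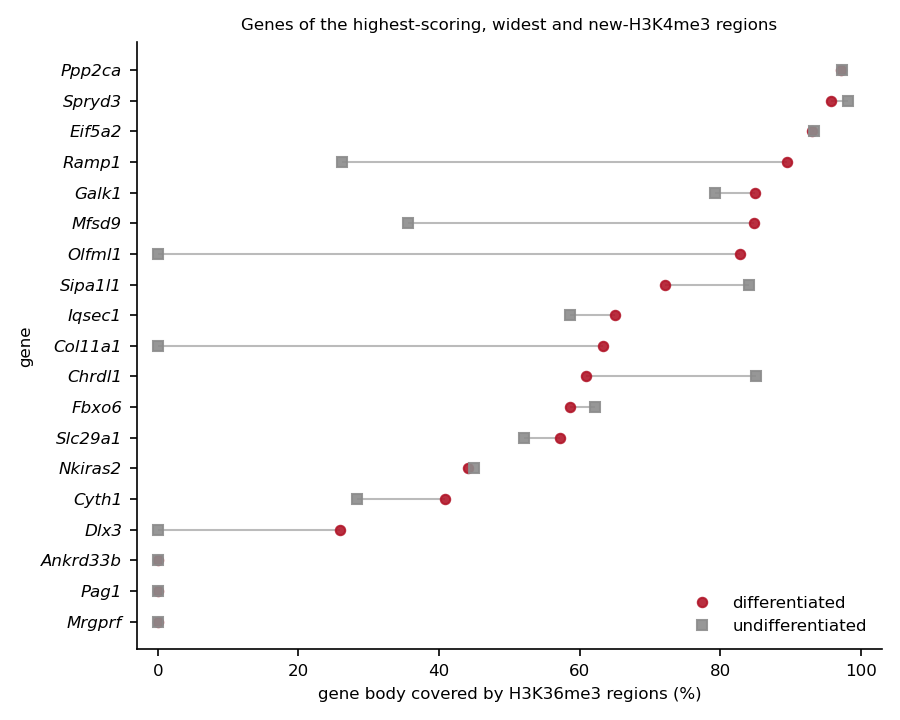
H3K36me3 cover of the gene body, in percent of its annotated length, in differentiated (red circles) and undifferentiated (grey squares) cells, for the genes of the 10 highest-scoring, the 5 widest and the 7 new-H3K4me3 promoter regions. Col11a1, Olfml1, Ramp1, Mfsd9, Dlx3 and Cyth1 lie higher in differentiated cells, Chrdl1 and Sipa1l1 lower, and the others closer together.

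Over all genes whose body held a gained factor-free region (n = 1979), 91 (4.598%) had an H3K36me3 cover at least 20 points higher in differentiated cells, where all genes gave 2.28%, and 70 (3.54%) at least 20 points lower, where all genes gave 2.23%. Both shares were above those of all genes. Genes that held a gained factor-bound region and no factor-free one (n = 774) gave 4.65% higher and 2.33% lower. The host genes were long, with a median of 72698 bp against 15525 bp over all genes, and the part of length in these shares was not tested.

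By nearest TSS within 100 kb, 4403 regions fell to 3336 of 22226 protein-coding genes (15.0% of all genes) and 631 had no gene. A single region was assigned to 2581 genes, 2 regions to 545, 3 to 142, 4 to 47 and 5 or more to 21. Of the 3336 genes, 953 (28.6%) had no RUNX2 or C/EBPβ peak of either state assigned to them, where all genes gave 58.6% and the 11819 genes with any differentiated H3K9Ac region 34.3%. A gained factor-bound region was also present at 1015, which is 30.4% of the genes with a gained factor-free region (all genes 10.6%) and 43.1% of the 2355 genes with a factor-bound one. A kept H3K9Ac region was present at 2231 (66.9%; all genes 46.5%). H3K4me3 marked a TSS of 50.7% of the 3336 genes in differentiated cells, against 40.1% of all genes, and of 44.5% in undifferentiated cells, against 35.0% of all genes.

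The genes with most regions were Fgfr2, a receptor for fibroblast growth factors, and Sept9, a septin of the cytoskeleton, with 8 each. Svil, the actin-binding protein supervillin, had 7. AI480653, Bre, Dysf, the membrane-repair protein dysferlin, Sgms1, a sphingomyelin synthase, and Tns1, the focal-adhesion protein tensin, had 6 each. The next 7 by name, with 5 each, were 2010111I01Rik, Abtb2, Ampd3, an AMP deaminase, Ank3, an ankyrin, Apbb2, Bach2, a transcriptional repressor, and Bckdhb, a subunit of the branched-chain keto acid dehydrogenase. These counts depend on which transcript starts are used. With protein-coding transcripts alone, a setting chosen after the counts had been seen, Fgfr2 had 4, Sept9 7, Bre 1 and Abtb2 2, while Svil kept 7 and Sgms1 and Tns1 kept 6. The 8 Fgfr2 regions scored between 19.5 and 159 and the 8 Sept9 regions between 22.6 and 197, all inside H4K5Ac in both states.

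Matrix genes of the osteoblast often had a gained factor-free region nearby. Of 24 genes of bone matrix and mineralisation, 12 (50.0%, exact 95% interval 29.1 to 70.9) had one, where all genes gave 15.0%. A gained factor-bound region was at 7 (29.2%; all genes 10.6%). None of the 12 lacked a RUNX2 or C/EBPβ peak of either state, where 28.6% of all genes with a gained factor-free region lacked one. That was not particular to matrix genes. The number without a peak was also 0 in other lists, among them those of osteocytes, fatty acid oxidation and the core clock. In this and the later lists, all genes means 22226, of which 11819 had any differentiated H3K9Ac region. A list's share of such genes was not allowed for. Col1a1, a chain of type I collagen, had 3 upstream of its start, with scores of 109.5, 73.2 and 18.5, the last near the list's lowest score of 17.0. Sparc, the matrix protein osteonectin, had 3, of which 1 lay at a promoter. Mepe, a matrix phosphoglycoprotein of osteocytes, and Ank, a pyrophosphate transporter, had 2 each. Col1a2, Spp1 (osteopontin), Alpl (tissue-nonspecific alkaline phosphatase), Dmp1, Phospho1, Postn, Dcn and Serpinh1 made up the remainder. The Alpl region was 8140 bp wide, scored 163 and lay 989 bp downstream of a start, 11129 bp from the nearest factor peak. The Spp1 region was 1045 bp wide with a score of 31.1.

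Of 24 transcription factors of the lineage, 6 (25.0%, 9.77 to 46.7, an interval that includes the 15.0% of all genes) had a region: Runx2, Dlx3, Zfp521, Fos, Jun and Tcf7. Runx2 had 2, one in its own intron and one in an intron of the neighbouring Supt3h, with scores of 131 and 83.2, at 4804 bp and 23110 bp from the nearest factor peak. Tcf7, a transcriptional effector of Wnt signalling, had 3 and no factor peak. One of them lay 59 bp upstream of a start, scored 197 and was outside H4K5Ac in both states, and H3K36me3 covered 81.6% of the gene in differentiated and 34.2% in undifferentiated cells. Sp7, Dlx5 and Twist1 had none. Cebpb had none by this assignment and 1 with protein-coding transcripts alone, since a transcript of a neighbouring gene starts beside it.

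In the Wnt, BMP and TGFβ list, 12 of 30 (40.0%, 22.7 to 59.4; all genes 15.0%) had a region, against 16 (53.3%; all genes 10.6%) with a gained factor-bound one. They included Lrp6, a Wnt co-receptor, Axin2, a feedback inhibitor of Wnt signalling, Dkk1, a secreted Wnt antagonist, Fzd2, a Wnt receptor, Bmp6, the ligand, and Bmpr1a, Bmpr2 and Acvr1, receptors of the BMP family. Smad5, also in the list, had a region by this assignment and none with protein-coding transcripts alone. In the list of genes for osteoclast coupling 3 of 11 (27.3%, 6.02 to 61.0) had one, Ptgs2, Pth1r and Il11. In that of osteocytes 3 of 9 (33.3%, 7.49 to 70.1) had one, Dmp1, Mepe and Capg. Both intervals included the 15.0% of all genes.

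For the metabolic and clock lists the intervals included the 15.0% of all genes. Glycolysis and glucose uptake had 5 of 17 (29.4%, 10.3 to 56.0), fatty acid oxidation and mitochondrial biogenesis 4 of 20 (20%, 5.73 to 43.7) and the core clock 6 of 18 (33.3%, 13.3 to 59.0). The Ppargc1a region, at the gene of the coactivator PGC-1α, lay 959 bp from a start, scored 245 and was outside H4K5Ac in both states. Interferon and antigen presentation had 5 of 20, with H2-D1, H2-K1, Irf9 and Ifih1 at promoters and Irf1 with an intergenic region. The intervals of the interferon list and of the lists that follow also included 15.0%. The cell cycle had 3 of 22, acetylation enzymes 3 of 18, lysosome and autophagy 2 of 18, housekeeping genes 3 of 10 and the secretory pathway 1 of 19, which was Creb3l1.

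Among markers of other cell types, 5 of 9 endothelial genes had a gained factor-free region (Pecam1, Cdh5, Vwf, Emcn and Erg; 55.6%, 21.2 to 86.3), where all genes gave 15.0%. For the other 5 marker lists the interval included 15.0%. They held 4 of 12 adipocyte genes (Pparg, Cebpa, Lep and Slc2a4), 4 of 12 muscle genes (Myf5, Mef2c, Des and Acta1), 3 of 12 chondrocyte genes (Sox5, Acan and Col11a1), 2 of 10 neural genes (Syn1 and Gfap) and 1 of 11 haematopoietic genes (Tal1). None of the endothelial, adipocyte, muscle, neural or haematopoietic genes had H3K4me3 at a TSS in either state, and 4 chondrocyte genes had it in differentiated cells against 2 in undifferentiated cells. Of 8 osteoblast genes, Runx2, Col1a1, Col1a2 and Sparc had H3K4me3 at a TSS in both states, Spp1 in differentiated cells only, Sp7 in undifferentiated cells only, and Ibsp and Alpl in neither.

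**Figure D4:**
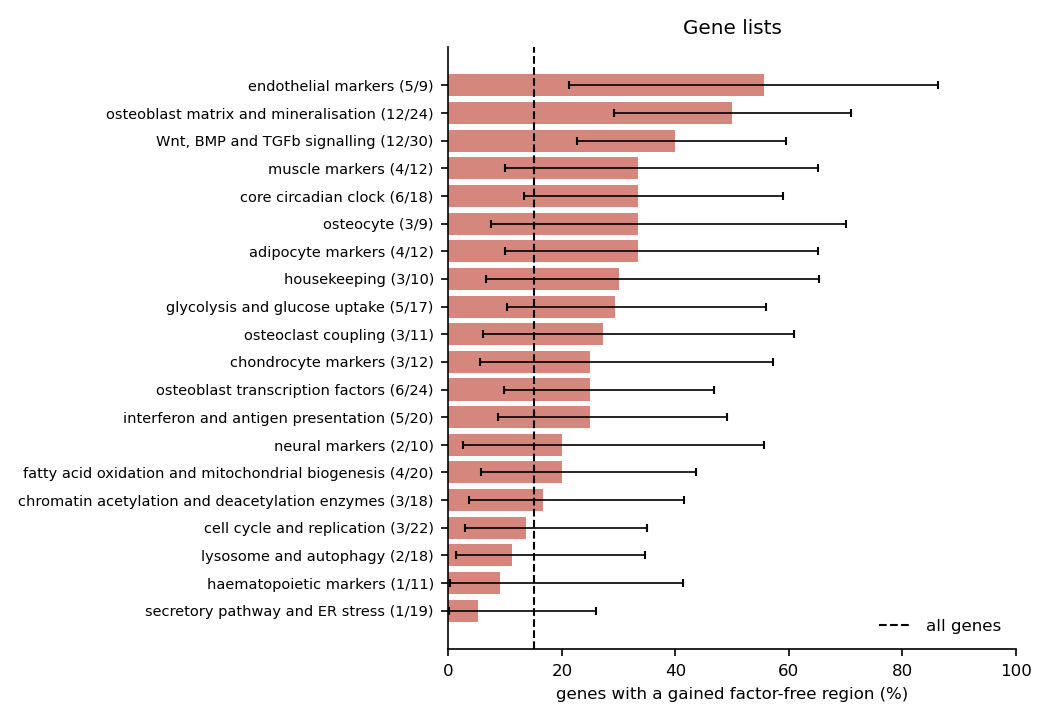
Share of the genes of each list with a gained factor-free region by nearest TSS, with the counts beside each name, exact 95% intervals as error bars and the share over all genes (15.0%) as a dashed line. Endothelial markers (5 of 9), osteoblast matrix (12 of 24) and Wnt, BMP and TGFβ signalling (12 of 30) are the lists whose interval lies above the line. The line is over all 22226 genes, of which 11819 had any differentiated H3K9Ac region. Median gene lengths were 91119 bp (endothelial), 15114.5 bp (matrix) and 34711.5 bp (signalling), against 15525 bp over all genes. The part of either in these shares was not tested.

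Motif letters were counted in the central 0.5 kb of each region, on both strands, and in windows of the same length 2 kb to each side. The AP-1 letters TGANTCA were in 22.2% of gained factor-free regions (all regions 16.8%) and 14.0% of their flanks, a difference of 8.22 points (6.90 to 9.57). These letters take any middle base. They include TGACTCA and TGAGTCA, bound by FOS and JUN proteins, but also other forms such as TGAATCA, which were not counted apart. The E-box CAGCTG was in 30.7% of regions (all regions 26.5%) and 22.5% of flanks, a difference of 8.24 points (6.74 to 9.76). The GC box GGGCGG was in 17.4% (all regions 29.7%) and 7.28% of flanks, and the ETS letters CCGGAA in 9.91% (all regions 15.2%) and 5.17% of flanks. TEAD letters GGAATG were in 27.4% (all regions 25.9%) against 24.8% of flanks. A flank shares its locus with its region, and flanks of wide regions can lie inside them. The part of base composition in the differences from the flanks was not tested.

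The factor motifs were no more frequent in gained factor-free regions than beside them. RUNX letters TGTGGT were in 32.8% of regions (all regions 31.0%) and 33.9% of flanks, a difference of -1.16 points (-2.75 to 0.437), and C/EBP letters TTNNGCAA in 18.4% (all regions 19.0%) and 17.99%, a difference of 0.407 points (-0.887 to 1.73). Among gained factor-bound regions 45.3% held the RUNX letters and 26.6% the C/EBP letters; since the classes were set by factor peaks, these are descriptions. CCAAT letters were in 43.6% of regions (all regions 42.9%) and 50.6% of flanks, and the homeobox letters TAATTA in 10.2% (all regions 8.59%) and 13.2%.

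Against gained factor-bound regions the order of the motifs was different. AP-1 was less frequent, at 22.2% against 24.8%, a difference of -2.65 points (-4.41 to -0.902), but away from promoters the interval included 0 (23.2% against 25.0%, -1.82 points, -3.66 to 0.0130). TEAD was less frequent by a difference of -5.58 points (-7.47 to -3.68). The GC box was more frequent, at 17.4% against 9.46%, and ETS at 9.91% against 6.71%. The E-box did not differ beyond counting error, at 30.7% against 29.6% (1.09 points, -0.804 to 2.98). Median GC of the central 0.5 kb was 47.9% in gained factor-free and 46.1% in gained factor-bound regions, and its part in these differences was not tested. At promoters the GC box was in 45.4% of gained factor-free regions and 10.3% of their flanks, and in 58.8% of kept factor-free and 55.6% of all promoter regions.

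The other motifs searched gave differences from the flanks of less than 1 point. CRE TGACGTCA was in 0.695% of gained factor-free regions (all regions 0.98%), a second E-box CACGTG in 7.59% (8.67%), FOX TGTTTAC in 7.51% (6.29%) and TCF/LEF CTTTGAA in 11.9% (10.1%). RORE TAGGTCA was in 4.07% (3.81%), STAT TTCCNGGAA, some of whose matches contain the ETS letters, in 1.91% (2.0%) and the ERR half-site TCAAGGTCA in 0.834% (1.04%). Over the 16 motifs, 7 were more frequent than in the flanks and 3 less frequent, by an interval that left out 0.

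**Figure D5:**
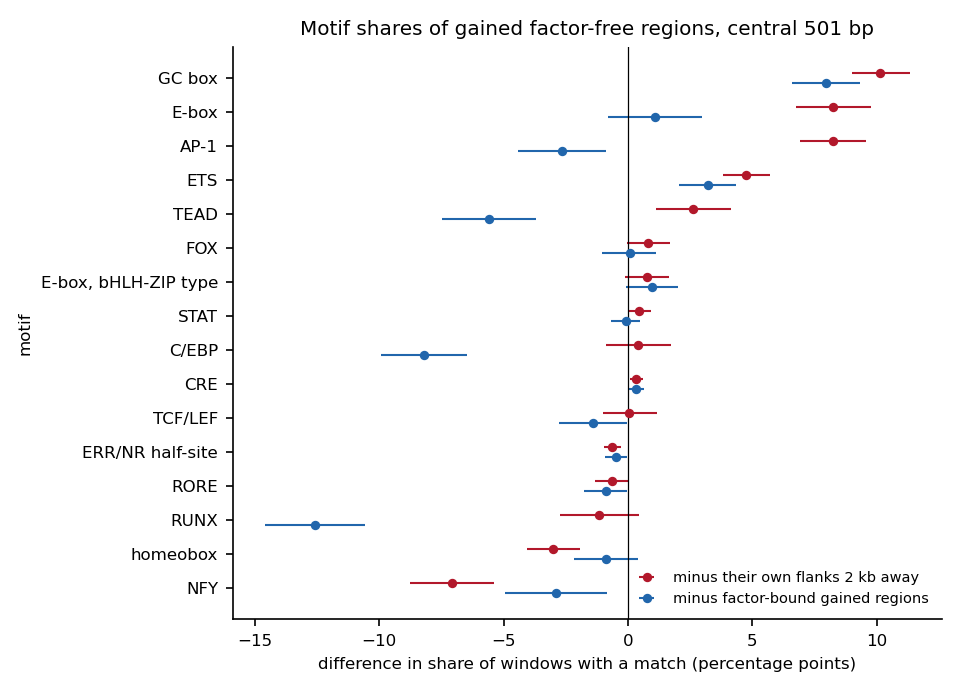
Difference in the share of gained factor-free regions with a motif match in the central 0.5 kb, in percentage points, minus the share of their flanks (red) and minus that of gained factor-bound regions (blue), with Newcombe 95% intervals. The GC box, E-box and AP-1 lie furthest above 0 against the flanks, and RUNX and C/EBP furthest below 0 against factor-bound regions. The part of base composition was not tested.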

How the data were processed

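The data were ChIP-seq peak lists. Bowtie, HOMER and mm9 are the tools and build named in the submitters' processing notes, without versions or thresholds, which are not given here. The deposited score of a region is the authors' value and was used to rank and describe regions within the H3K9Ac list. Per the labels, lists hold merged replicate peaks, and every name in the files records at least 2. The differentiated H3K36me3 sample's treatment label was garbled, so its title was used for its state. The labels' protocol also writes H3K5Ac where the antibody label reads H4K5Ac. Inputs were not used; the label of the differentiated one gives 1,25-dihydroxyvitamin D3 as its treatment.

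Regions were classed by overlaps of at least 1 bp, with Python 3.11.15, pandas 2.3.3 and scipy 1.17.1. Genes were the 22226 protein-coding genes of GENCODE vM1 (with Cebpd) and the 70052 starts of all their transcripts. Starts of protein-coding transcripts alone (46014, without 2 transcripts over 2500 kb) were tried as an alternative, chosen after the results with all starts had been seen. H3K36me3 is the covered percentage of the annotated gene body. No p-value was computed, since each state has 1 list per antibody. Shares have exact Clopper-Pearson and differences Newcombe 95% intervals. Overlap, interval and motif steps were tested on simulated data.

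The regions, the gene lists and the motifs were chosen with earlier results of these data known. Genes named were the 15 with most regions (ties by name), those of the 10 highest-scoring and 5 widest regions, the new-H3K4me3 promoters, a fixed list, and up to 8 genes with a region per gene list in list order; any beyond these were named after their values were seen.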

Additional observations from a re-analysis of the deposited data

How the results depend on the processing

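Of 62 recomputed summary values, 50 stayed within the interval, the side of 0 or 1.5 times the count of the value given above. Another 11 moved and 1 weakened. Many of the 50 could hardly change, because 3 of the settings kept nearly all 5034 regions. These were no factor peak within 1 kb (4941 regions), no undifferentiated H3K9Ac region within 1 kb (5033) and autosomes only (4945). The tally is thus not a measure of robustness. With only the regions at or above the differentiated list's median score, 91 regions at 80 genes were left, of which 96.7% lay in undifferentiated H4K5Ac, 95.6% in undifferentiated H3K4me1, 4.40% in differentiated H3K4me3 and 23.1% at promoters. There the H4K5Ac difference from gained factor-bound regions was -2.27 points and its interval included 0 (-8.26 to 0.409), with fewer regions by construction. Among regions of 2000 bp or narrower the shares were 92.6% in undifferentiated H4K5Ac, 91.0% in undifferentiated H3K4me1 and 0.0899% in differentiated H3K4me3. The promoter share was 20.8% within 5 kb of a TSS and 9.85% with starts of protein-coding transcripts alone, the alternative added after seeing the data. Of the 16 motifs, 10 differed from the flanks in the central 0.5 kb, 7 in 0.2 kb and 13 in 1 kb. In 0.2 kb the FOX difference from the flanks turned to -0.189 and TCF/LEF to -0.248 points, and in 1 kb C/EBP turned to -0.0397 and TCF/LEF to -0.0993 points; the cause was not tested, and the interval of each included 0. No replicate could be left out, and no paired analysis was possible because each antibody and state is 1 merged list. Read depth is unknown, so weak regions, which most gained factor-free regions are, may be missed or called by depth alone, and this was not tested.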
